A study of Mus musculus with 4 samples.

Results

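Accessible chromatin over protein-coding exons was examined by ATAC-seq in mouse microglia, the resident macrophages of the brain. Peaks of 4 libraries were kept where their height reached 0.25 tags per 1e6 tags of the library, and overlapping autosomal peaks were merged. A merged region was taken as a coding exon region where its midpoint lay in a protein-coding CDS exon and where it lay more than 1 kb from every annotated transcription start site (TSS). Of 93336 merged regions, 1398 (1.5%) met this rule, and they fell in 1220 genes. Of the other regions, 36276 were intronic, 28115 lay within 1 kb of a TSS, 24679 were intergenic and 2868 lay in untranslated or non-coding exons.

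The groups were 2 libraries of WT and 2 of IRF8KO microglia, all sorted by flow cytometry from brains of untreated C57BL/6 mice aged 3 months. The labels give neither the type of Irf8 allele nor the number of animals per library. Nothing in them states that replicates came from separate animals, so p-values measure the spread between these samples, which may be technical. In a sorted bulk population, fewer cells of a type and less open chromatin per cell cannot be told apart.

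ATAC-seq uses the Tn5 transposase, which inserts adapters where DNA is free of nucleosomes. Most accessible sites lie at promoters and in non-coding DNA, but transcription factors also bind within coding exons, where the same bases serve as codons and as binding sites. IRF8, an interferon regulatory factor, is needed by microglia for their normal state. It binds DNA weakly alone and pairs with the ETS factor PU.1 on a composite ETS-IRF element, GGAANNGAAA, while AP-1 (TGANTCA) and C/EBP (TTGCNNAA) factors act beside them in macrophages.

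Several coding exon sequences carry the results below and are shown here, from GRCm38. For 3 of the most accessible regions, a window centred on the highest summit is printed on the plus strand with coding bases in capitals. In Prdm2 (chr4:143162108-143162208) and Sag (chr1:87828411-87828511) the accessible region spans a short exon, and the window crosses an edge of the exon. In Klf4 (chr4:55530333-55530433) it lies inside a long exon, so that every base is coding.

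Prdm2: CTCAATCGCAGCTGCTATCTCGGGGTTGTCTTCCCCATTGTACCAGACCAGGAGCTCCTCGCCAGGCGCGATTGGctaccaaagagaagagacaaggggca
Sag: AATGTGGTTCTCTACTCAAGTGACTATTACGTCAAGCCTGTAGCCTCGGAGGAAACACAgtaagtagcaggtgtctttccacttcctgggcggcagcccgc
Klf4: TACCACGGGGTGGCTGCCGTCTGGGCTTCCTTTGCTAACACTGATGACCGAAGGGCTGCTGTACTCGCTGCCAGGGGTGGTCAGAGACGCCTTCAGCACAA

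The ETS-IRF element is shown for 5 named regions that were held by WT alone or were among those with the largest fall in IRF8KO. Each line gives 50 bases read on the strand that carries the element, which is in capitals. The stretches are chr1:44180627-44180676 (plus strand) for Ercc5, chr5:52435739-52435788 (minus) for Ccdc149, chr3:85604615-85604664 (minus) for Gatb, chr2:125589537-125589586 (minus) for Cep152 and chr2:152881042-152881091 (minus) for Tpx2.

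Ercc5: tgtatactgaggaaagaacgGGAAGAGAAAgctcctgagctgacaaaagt
Ccdc149: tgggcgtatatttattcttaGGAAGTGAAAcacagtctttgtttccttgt
Gatb: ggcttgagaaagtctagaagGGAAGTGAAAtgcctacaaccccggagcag
Cep152: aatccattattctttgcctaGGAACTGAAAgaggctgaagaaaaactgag
Tpx2: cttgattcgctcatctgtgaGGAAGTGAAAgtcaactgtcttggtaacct

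All 10 bases of the element were coding in Ercc5 and Tpx2, and 9 of them in Cep152. In Ccdc149 and Gatb the element lay in the intron beside the exon, within the same accessible region. The element lay 0 bp from the summit in Tpx2 and 22 to 60 bp from it in the others. A pair of regions with another element are shown as summit windows on the plus strand. BC028528 (chr3:95888815-95888915) was held by WT alone and has an AP-1 match, and Atad2 (chr15:58108351-58108451) was held by IRF8KO alone and has a CEBP match, each in capitals. Within 100 bases of its summit, BC028528 also has an ISRE match (GAAANNGAAA), which the printed bases do not show.

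BC028528: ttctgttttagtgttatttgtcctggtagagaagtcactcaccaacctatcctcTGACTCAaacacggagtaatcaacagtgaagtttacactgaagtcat
Atad2: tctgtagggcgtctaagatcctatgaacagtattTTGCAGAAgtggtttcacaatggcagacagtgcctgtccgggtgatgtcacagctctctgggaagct

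Levels are given as normalised pileup, the height in tags of the highest peak over a region per 1e6 tags of the library. The libraries held 46948938 and 48896408 tags (WT replicates 1 and 2) and 78793572 and 66224648 tags (IRF8KO), so depth followed genotype, as did the tag length of 50 bp in WT and 49 bp in IRF8KO. The threshold equals 11.7, 12.2, 19.7 and 16.6 tags in that order. IRF8KO replicate 1 stood apart: over the 55504 regions listed in all libraries its median level was 0.457, against 0.788, 0.654 and 0.725 in WT replicates 1 and 2 and IRF8KO replicate 2. Promoters of 13 or 14 of 14 autosomal microglia marker genes held a peak in each library. Sall1 was the marker without one, in both IRF8KO libraries. Promoters of 0 or 1 of 8 neutrophil and monocyte markers, 1 of 8 B and T cell markers and 0 to 3 of 8 neuron markers held a peak. The B and T cell marker with a peak was Cd3d in every library, at 0.873 and 1.08 in WT and 3.44 and 3.44 in IRF8KO, and its part in any result was not tested. For astrocytes these were 2 to 4 of 7, for oligodendrocytes 1 to 3 of 6 and for endothelium 3 to 5 of 6.

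The coding exon regions were GC-rich, and somewhat longer than intronic regions in each library, by 22.5, 33, 21 and 31 bp at the median. Their median length was 266 bp (quartiles 186 and 403 bp) and the median GC content within 100 bases of the summit was 54.7%, where coding exons eligible under the rule had 51.1%. In each library the members present had a higher median summit GC than the intronic regions present, by 6.47, 6.47, 6.97 and 6.47 percentage points (mean 6.59 ± 0.249, SD over 4 libraries). Their median level was close to that of intronic regions in each library, with differences of 0.0213, 0, -0.0317 and -0.0453 normalised pileup, that is -0.0139 ± 0.0302 (SD, n = 4). The median level of the members present was 0.554, 0.511, 0.463 and 0.498 in WT replicates 1 and 2 and IRF8KO replicates 1 and 2.

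The rule places the midpoint of a region in a CDS exon, so the overlap of the regions with exons is largely set by it and is given as a description. The highest summit lay in coding sequence in 1141 members (81.6%). The median member was 67.1% coding, 386 were wholly coding and 341 were less than 50% coding. Of the regions, 381 lay inside 1 exon, 556 spanned a whole exon with its flanks and 461 crossed an exon edge. Both edges lay within 20 bp of the exon's own edges in 21 members (1.5%), so the accessible stretch seldom matched the exon itself. Regions that spanned a whole exon were present in all 4 libraries in 45.7% of cases, against 24.4% of those inside an exon, and were long, with a median of 357 bp.

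Last coding exons held 28.2% of the members and 18.3% of the eligible coding bases, while internal exons held 60.2% and 72.7%. First coding exons held 5.51% against 4.10% of the bases, and genes with a single coding exon 6.15% against 4.81%. Members in last exons were present in all 4 libraries in 42.6% of cases and those in internal exons in 31.2%. These shares are descriptions without a test. The median distance to the nearest TSS was 4656 bp, and 334 members (23.9%) lay over 10 kb from one.

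At the summit, 1372 members had a 50-base stretch found once in the genome. The other 26 had at least 2 copies, among them Spred2 and regions in Sfi1 and Hspa1b, so that reads there could belong to another copy. Most genes had 1 member (1087 genes), 104 had 2 and 29 had 3 or more.

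Ank2, which encodes the membrane adaptor ankyrin-B, had the most members of any gene, 7 in 3 exons. Of these, 7 and 6 were present in the WT libraries and 0 and 0 in IRF8KO. A 6198-bp coding exon, number 36, held 5 of them, and 4 of these 5 were held by both WT libraries and had no peak of any strength in IRF8KO. Their WT levels in replicates 1 and 2 were 0.937 and 0.859, 0.447 and 0.389, 0.937 and 0.654, and 0.256 and 0.348. Neuronal isoforms of ankyrin-B use a giant exon, and promoters of 1, 3, 0 and 3 of 8 neuron markers held a peak in WT replicates 1 and 2 and IRF8KO replicates 1 and 2. Summed over these markers the promoter levels were 0.426, 1.08, 0 and 0.876 normalised pileup in the same order, and Rbfox3, Syt1, Gad1, Gad2 and Stmn2 had no promoter peak in any library. Their part in the Ank2 values was not tested. Unc13b, a synaptic vesicle priming factor, had 4 members, of which 4 and 2 were present in WT and 0 and 0 in IRF8KO, and was picked out after its values were seen. Cenpf, Prr36 and Sfi1 had 5 members each and Adam1b 4, and members of each were present in all libraries.

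More coding exon regions were present in the WT than in the IRF8KO libraries. The numbers were 1110 and 969 in WT (1039.5 ± 99.7, SD, n = 2) and 610 and 900 in IRF8KO (755 ± 205, n = 2), so the groups did not overlap. An exact two-sided permutation test gave p = 0.33, the smallest value that 2 libraries against 2 can give. As a share of all regions present in the same library, members made up 1.51% and 1.53% in WT and 1.26% and 1.36% in IRF8KO, a difference of -0.209 percentage points (exact permutation p = 0.33). The difference in number depended on the setting: it was -284 as given, -142 without IRF8KO replicate 1, -21 once the libraries were scaled to equal medians and 271, the opposite direction, with all deposited peaks.

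**Figure D1:**
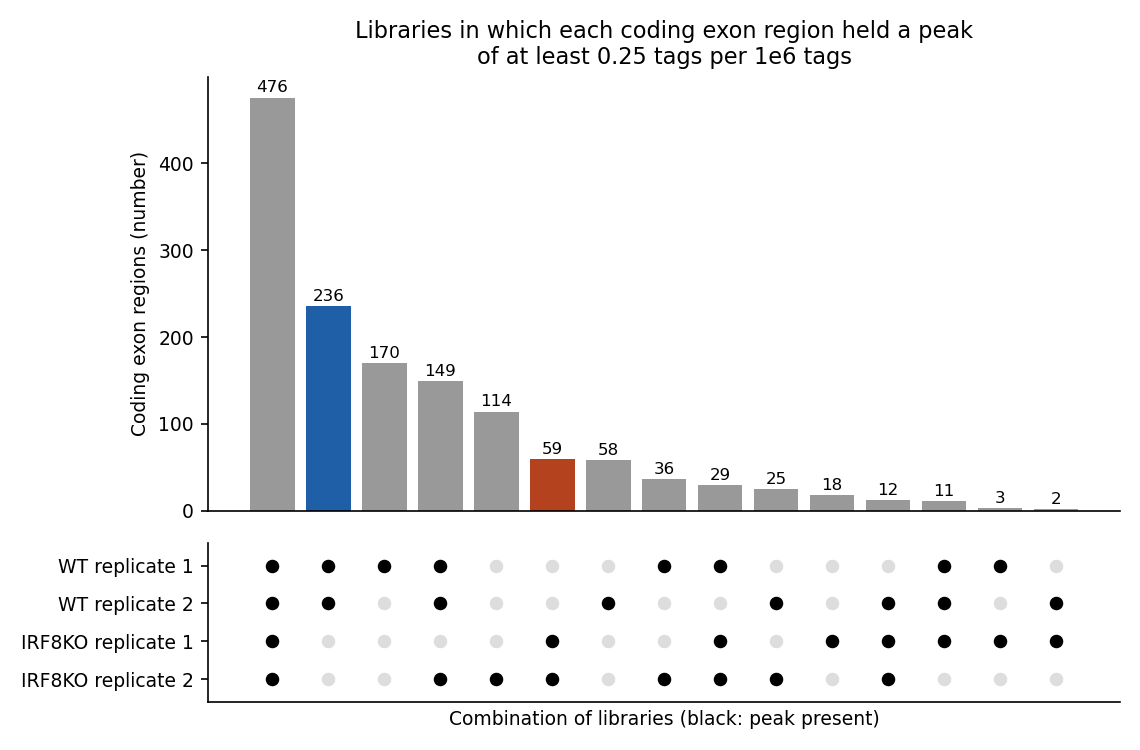
Number of coding exon regions (bars, vertical axis) for each combination of libraries with a peak of at least 0.25 normalised pileup (black dots). The largest bar is presence in all 4 libraries (476), followed by both WT libraries alone (236, blue), while both IRF8KO libraries alone hold 59 (red). These coloured bars count a weaker listed peak in the other genotype as absence, which the stricter WT-only and IRF8KO-only classes of the text do not.

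In all, 476 members (34.0%) were present in all 4 libraries, 361 in 2, 360 in 1 and the rest in 3. A region was called WT-only where both WT libraries reached the threshold and neither IRF8KO library listed a peak of any strength, and IRF8KO-only in the opposite case. The WT-only class held 116 members (8.30%, 95% Wilson interval 6.96 to 9.86%) and the IRF8KO-only class 27 (1.93%, 1.33 to 2.80%), a ratio of 4.30. Over all 93336 regions the shares were 6.47% WT-only and 3.41% IRF8KO-only, a ratio of 1.90, and over intronic regions 8.15% and 4.03%. For the pairs made of 1 WT and 1 IRF8KO library, the same rule found 0 to 7 members and, over all regions, 108 to 420. Intervals cover counting error only.

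Without IRF8KO replicate 1, the classes held 137 and 79 members (9.81% and 5.66%), where all regions gave 7.55% and 8.77%. Leaving out a library also loosens the rule, since the genotype's other library alone then decides. With libraries scaled to equal medians, a setting chosen after seeing the data, the classes held 96 and 38 members (6.51% and 2.58%), where all regions gave 5.70% and 4.73%. With all deposited peaks they held 294 and 208 members (3.88% and 2.74%), where all regions gave 3.66% and 3.63%. WT-only members outnumbered IRF8KO-only members in each of these settings.

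Because coding exon regions are GC-rich, the same shares were taken within ranges of summit GC. IRF8KO-only shares of coding exon regions were 2.03, 3.17, 1.81, 2.53 and 0.785% from the lowest GC range (below 45%) to the highest (60% or more), and those of intronic regions 5.10, 3.76, 3.48, 3.68 and 2.47%. The coding exon share was the lower in each of the 5 ranges. WT-only shares were 14.2, 10.9, 12.4, 5.06 and 3.66% against 9.27, 9.14, 7.27, 5.39 and 3.44% in introns, so coding exon regions were higher below 55% GC and close to introns above it. The lowest range held 148 members and the IRF8KO-only class few in any range.

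**Figure D2:**
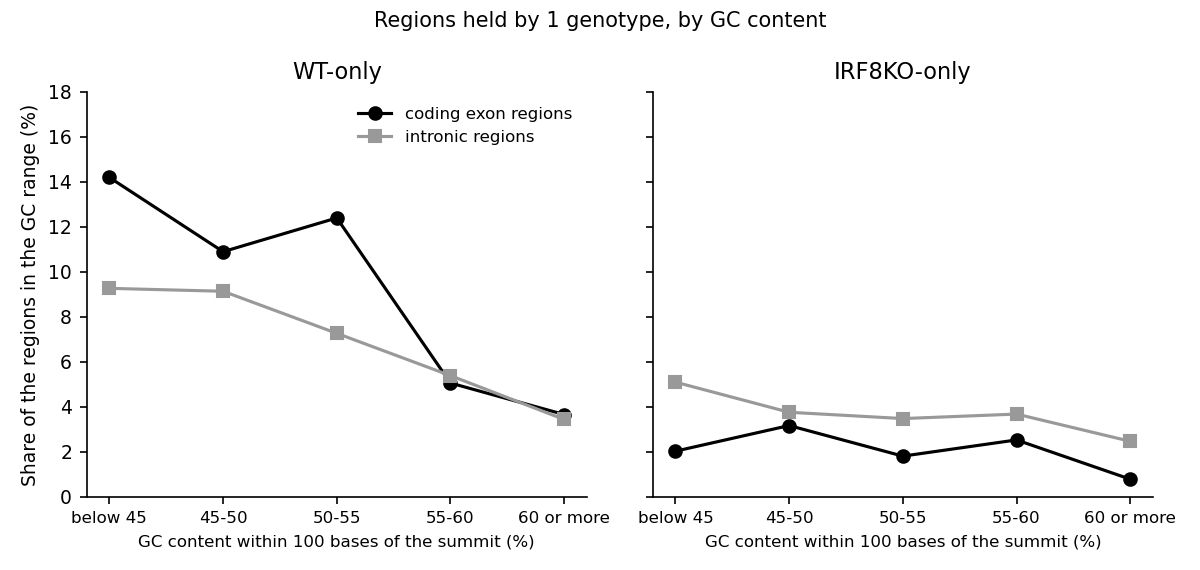
Share of regions called WT-only (left) and IRF8KO-only (right) in 5 ranges of GC content within 100 bases of the summit, for coding exon regions (black circles) and intronic regions (grey squares), in percent of the regions in the range. IRF8KO-only coding exon regions lie between 0.785 and 3.17%, below the intronic value in each range.

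Regions listed in all 4 libraries at any strength could be compared by level, and 804 of the 1398 members passed this filter. Log2 levels were centred on each library's median over all 55504 such regions, since those medians lay 0.32 lower in IRF8KO than in WT on the log2 scale, and tested with limma. Relative to that shift, 108 members (13.4%) were higher and 115 (14.3%) lower in IRF8KO at an adjusted p under 0.05 (limma, Benjamini-Hochberg over all regions). The background over all regions was 14.0% higher and 12.5% lower, so both shares were near it. The median log2 change of these members was -0.003 (quartiles -0.467 and 0.433), and over all regions 0.005. Without centring, 23 members were higher and 75 lower, against 2.97% higher and 7.03% lower over all regions. Without WT replicate 1 the counts were 45 and 46, against 6.35% higher and 4.21% lower over all regions. The filter kept members with a peak in each genotype, so the WT-only and IRF8KO-only members are not in it. Membership needed the threshold in any library, so some members entered only through the genotype where they were high. The 476 members present in all 4 libraries gave 77 higher and 49 lower (median log2 change 0.112). The other 328 tested members gave 31 higher and 66 lower (median -0.223), and all regions were not split this way.

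Across these 804 members, log2 levels correlated more closely within a genotype than between them. Pearson's r over members was 0.92 between the WT libraries, 0.916 between the IRF8KO libraries and 0.653 to 0.686 between a WT and an IRF8KO library. Members are not independent replicates, and libraries of 1 genotype share depth range and tag length.

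**Figure D3:**
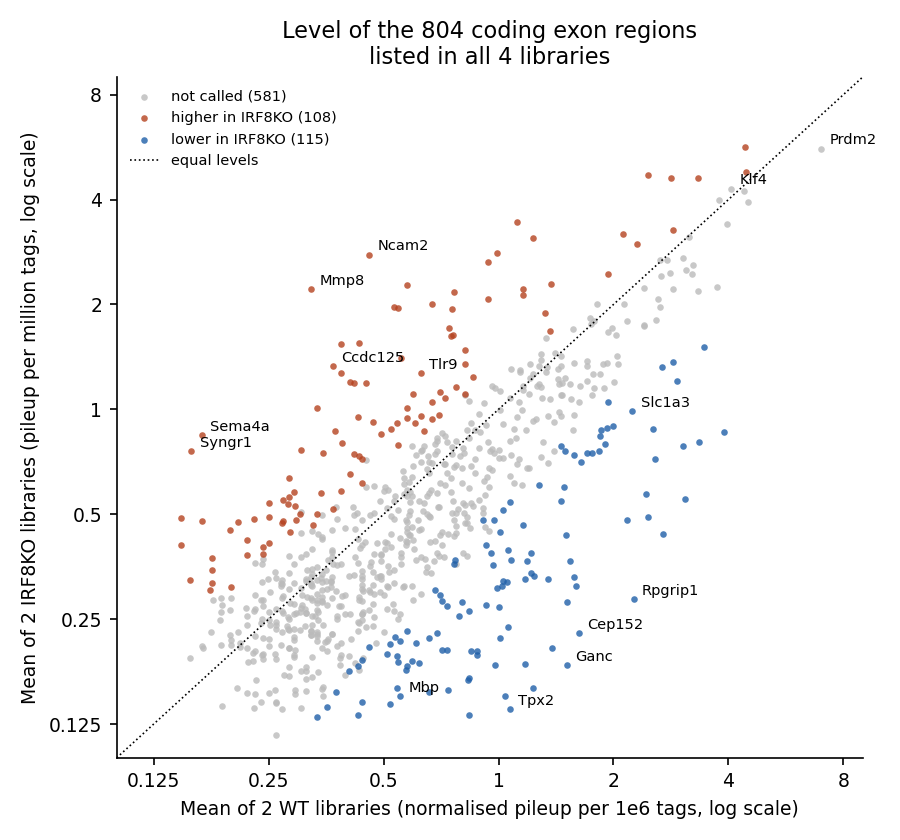
Mean level in the 2 IRF8KO libraries against that in the 2 WT libraries for the 804 coding exon regions listed in all 4, as normalised pileup on log scales. Red points (108) were higher and blue points (115) lower in IRF8KO relative to each library's median, the dotted line marks equal uncentred levels, and named genes include the largest changes each way.

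The most accessible members were shared by both genotypes. The Prdm2 region, over coding exon 5 of 8 of a PR-domain zinc finger gene, reached 7.67 and 6.36 in WT and 4.70 and 6.51 in IRF8KO. Its groups overlapped (log2 change -0.02 ± 0.15, SE; limma adjusted p = 0.953). The Klf4 region, inside exon 3 of a zinc finger transcription factor of macrophages, reached 4.58 and 3.54 in WT and 3.33 and 5.27 in IRF8KO (0.38 ± 0.16, adjusted p = 0.0808 by limma). The Sag region, over exon 9 of the arrestin of photoreceptors, reached 5.6 and 3.17 against 3.49 and 4.95. None of these 3 passed the test, and Klf4 did so when IRF8KO replicate 1 was left out (adjusted p = 0.0308 by limma).

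Of the 10 members with the highest mean level, 4 were higher in IRF8KO relative to the library medians. Pop1, which encodes a subunit of RNase P, rose from 3.24 and 2.41 to 3.99 and 5.24 (log2 change 1.03 ± 0.17, limma adjusted p = 3.96e-06). Iscu, the scaffold of iron-sulfur cluster assembly, rose by 0.79 ± 0.17 (adjusted p = 0.00023), and B430305J03Rik by 0.66. Without centring, these 3 calls were lost, and those of Iscu and B430305J03Rik also without WT replicate 1. The B430305J03Rik call was lost without the mean-variance trend too. Rin2, an endocytic regulator, rose by 0.42 with an adjusted p of 0.0472 and lost the call in 6 of 13 alternatives, among them leaving out either WT replicate or IRF8KO replicate 1. Itsn1, Cables1 and Pdzd2 did not pass, although Cables1 did without IRF8KO replicate 2 (adjusted p = 0.0228 by limma).

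The Irf8 gene itself held a member, over coding exon 2 of 8 (184 bp, chr8:120743706-120743889). Its level was 1.85 and 1.57 in WT and 1.09 and 1.66 in IRF8KO, and the groups overlapped. The summit lay within the exon in all 4 libraries, and the level did not pass the test (log2 change -0.02 ± 0.21, limma adjusted p = 0.956). Reads from this exon were thus present in the libraries labelled IRF8KO, and since the labels do not say which part of the gene was altered, this region does not check the genotype.

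WT-only members included some of high level. The Ptrhd1 region, over the last exon of a gene with a peptidyl-tRNA hydrolase domain, reached 3.17 and 2.19 in the WT libraries, from 149 and 107 tags at the summit. The Cd9 region, over exon 7 of 8 of a tetraspanin gene that rises in disease-associated microglia, reached 2.98 and 2.21, with 13.7% of it coding and its highest summit outside coding sequence. Neither IRF8KO library listed any peak at these places. BC028528 reached 2.39 and 1.60, Cttnbp2nl 1.96 and 1.53, and Mcm3, a subunit of the replicative helicase, 1.81 and 1.64.

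Of the 10 highest WT-only members, 3 held an ETS-IRF match within 100 bases of the summit, those of Ercc5, Ccdc149 and Gatb printed above. Ercc5, the endonuclease XPG of nucleotide excision repair, reached 1.94 and 1.53. Ccdc149 reached 1.45 and 1.84, and Gatb, a subunit of a mitochondrial amidotransferase, 2 and 1.21. The Cdk8 region, in a kinase of the Mediator complex, reached 1.83 and 1.41. The Egr1 region, inside the last exon of this immediate early transcription factor, reached 1.90 and 1.47 but with -log10 q of only 1.70 and 1.38 in the deposited lists, the weakest support among these 10.

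IRF8KO-only members were fewer, and the 10 highest lay below the 10 highest WT-only members, although the median best level was 0.544 over the 27 IRF8KO-only and 0.532 over the 116 WT-only members. The Spred2 region, over exon 2 of an inhibitor of Ras signalling, reached 0.914 and 1.57 in the IRF8KO libraries, and the sequence at its summit has 2 copies in the genome. Pcnx reached 0.673 and 1.28, Cand2, a cullin-binding protein, 0.660 and 1.13, and Umps, an enzyme of pyrimidine synthesis, 0.546 and 1.16. Replicate 1 was the lower in each of the 10 highest. Atad2, a bromodomain ATPase with the CEBP match printed above, reached 0.406 and 0.755. Vps8, Man2a1, Uap1, Car2 and Wdr46 had mean levels from 0.569 to 0.705.

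**Figure D4:**
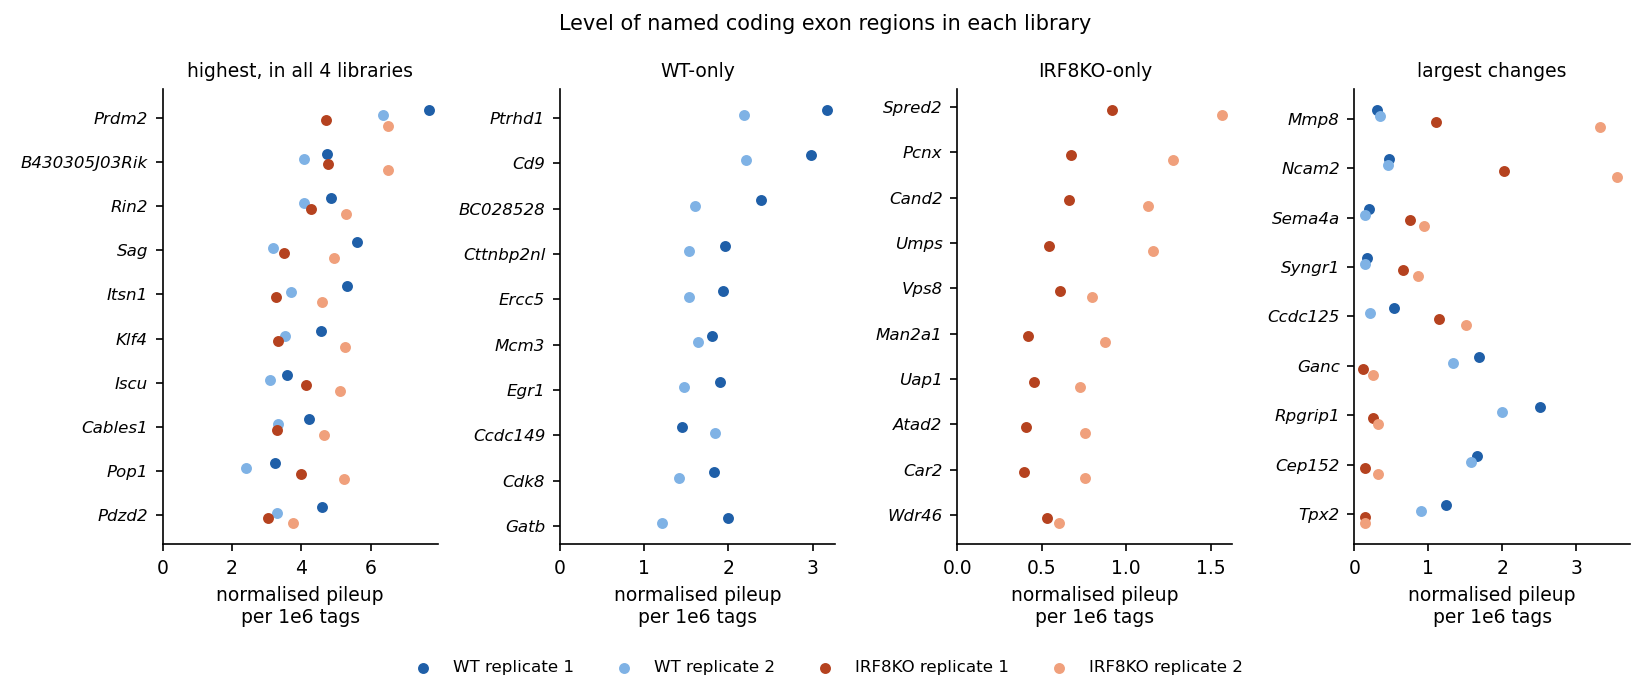
Level in each library (points, normalised pileup) of the 10 highest coding exon regions present in all 4 libraries, the 10 highest WT-only, the 10 highest IRF8KO-only and the largest rises and falls tested with limma. Scales differ between panels. WT-only regions reach 3.17, IRF8KO-only regions 1.57, and a library without a point lists no peak there.

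The largest rise was in the region spanning the last coding exon of Mmp8, the neutrophil collagenase, from 0.298 and 0.348 in WT to 1.1 and 3.32 in IRF8KO (log2 change 2.89 ± 0.28, limma adjusted p = 1.60e-11). Its highest summit lay outside coding sequence, and 26.4% of the region was coding. Both IRF8KO libraries were above both WT libraries, and IRF8KO replicate 2 was far above replicate 1. Promoters of 1, 1, 0 and 1 of the 8 neutrophil and monocyte markers held a peak in WT replicates 1 and 2 and IRF8KO replicates 1 and 2. Ly6c2, Ccr2, S100a9, Elane, Mpo and Camp had none in any library. Summed over the list, the promoter levels were 0.958 and 0.491 in WT and 0 and 0.257 normalised pileup in IRF8KO. The marker with a promoter peak was Ltf in both WT libraries and S100a8, at 0.257, in IRF8KO replicate 2. IRF8KO replicate 1 held none of these promoter peaks, and its Mmp8 level of 1.1 was also above both WT levels. The part of such cells in the Mmp8 values was not tested.

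Ncam2, a neural cell adhesion molecule, rose from 0.469 and 0.450 to 2.02 and 3.55 (log2 change 2.86 ± 0.23, limma adjusted p = 9.53e-14). Sema4a, a semaphorin with roles in immune cells, rose from 0.192 and 0.143 to 0.749 and 0.936. Syngr1, a synaptic vesicle protein, rose from 0.170 and 0.143 to 0.660 and 0.861, and Ccdc125 from 0.532 and 0.205 to 1.14 and 1.51. In Ncam2, Sema4a, Syngr1 and Ccdc125 the groups did not overlap. Sema4a and Syngr1 reached the height threshold in the IRF8KO libraries only, and so became members through the genotype where they were high. Their WT levels rest on 9 and 7 tags at the summit for Sema4a and 8 and 7 for Syngr1. Before centring, 13.3% of all tested members and 12% of all tested regions had both IRF8KO levels above both WT levels.

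The largest fall was in the region over coding exon 17 of 24 of Ganc, an alpha-glucosidase, from 1.68 and 1.33 in WT to 0.114 and 0.257 in IRF8KO (log2 change -2.81 ± 0.31, limma adjusted p = 3.12e-10). Its highest summit lay outside coding sequence, and 51.1% of the region was coding. Rpgrip1, Cep152 and Tpx2 were also among the largest falls, and each had an ETS-IRF match within 100 bases of the summit. Rpgrip1, a protein of the photoreceptor cilium, fell from 2.51 and 2 to 0.254 and 0.317 (-2.66 ± 0.26, adjusted p = 1.96e-11 by limma).

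Cep152, needed for centriole duplication, fell from 1.66 and 1.57 to 0.140 and 0.317, and Tpx2, a spindle assembly factor, from 1.24 and 0.900 to 0.140 and 0.136 (log2 changes -2.62 and -2.62). The groups did not overlap in Ganc, Rpgrip1, Cep152 or Tpx2. Tpx2 reached the height threshold in the WT libraries only, and so became a member through WT. Its IRF8KO levels rest on 11 and 9 tags at the summit. Before centring, 40.3% of all tested members and 37.4% of all tested regions had both IRF8KO levels below both WT levels. The rises and falls named here kept their direction and an adjusted p under 0.05 by limma in every alternative in which they were fitted.

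The share of members with an ETS-IRF match at the library's own summit was 4.68 and 4.64% in WT and 1.80 and 1.89% in IRF8KO. Both IRF8KO libraries were below both WT libraries, with a difference of -2.82 percentage points (SD within a genotype 0.0288 and 0.0605). Of the members present in either library of a genotype, 72.2% in WT and 61.7% in IRF8KO were present in both. These SDs thus come largely from the same regions and do not measure counting error. The exact two-sided permutation test gave p = 0.33, the smallest possible (0.667 after Benjamini-Hochberg adjustment over 12 motifs). The difference was -1.67 to -4.24 points over the alternatives. AP-1 matches were 5.05 and 5.99% in WT and 6.72 and 6.44% in IRF8KO (difference 1.07, exact permutation p = 0.33, adjusted 0.667). CEBP matches were 7.39 and 8.15% against 7.54 and 9%, and the groups overlapped (exact permutation p = 0.667). RUNX matches were 3.78 and 3.30% against 4.92 and 4.22% (difference 1.03), and ISRE matches 2.16 and 2.17% against 0.82 and 1.56% (-0.977), and neither pair of groups overlapped (exact permutation p = 0.33, adjusted 0.667). PU.1 shares did not overlap either, at a difference of -0.685 points, and the other 6 motifs gave an exact permutation p = 0.667.

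Among classes of members, 18 of 116 WT-only regions held an ETS-IRF match (15.5%, 95% Wilson interval 10 to 23.2%), 9 of 476 present in all 4 libraries (1.89%) and 0 of 27 IRF8KO-only regions, which allows a share of up to 11.1% by a limit of 3 counts and 12.5% by the Wilson interval. Of the members tested by level, 13 of the 115 lower ones held one (11.3%, 6.73 to 18.4%), 4 of the 581 not called (0.688%, 0.268 to 1.76%) and 2 of the 108 higher ones (1.85%). Over windows of the same length, all regions held it in 5.39%, with 20% of WT-only and 1.85% of IRF8KO-only regions. Among all regions tested by level, 12.7% of lower, 2.84% of not called and 2.58% of higher regions held it. WT-only and lower regions thus had the highest shares among members and among all regions, while members called higher and not called stood in the opposite order to all regions. The share over all 1398 members was 4.01%. Besides those named above, the lower members with a match included Tmc8 (1.53 and 1.66 in WT, 0.305 and 0.317 in IRF8KO), Hivep2 and Jmjd1c, chosen here after their values were seen. Spen went the other way with a match, from 2.90 and 2.02 to 4.51 and 4.88.

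AP-1 matches were found in 14 of the 108 higher members (13.0%, 7.88 to 20.6%), 8 of the 115 lower ones (6.96%) and 27 of the 581 not called (4.65%). Over all regions these shares were 17.3, 7.19 and 6.52%. In the IRF8KO-only class 3 of 27 members held an AP-1 match (11.1%, 3.85 to 28.1%), where all IRF8KO-only regions gave 22%, and in the WT-only class 10 of 116 (8.62%) against 6.24%. Higher members with an AP-1 match included Otulin, a deubiquitinase (1.47 and 0.982 in WT, 2.26 and 3.94 in IRF8KO), and Crybg3 (0.596 and 0.491 against 1.57 and 2.36), also chosen after their values were seen.

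CEBP matches had another order in coding exon regions than elsewhere among the regions tested by level. They were found in 4 of the 108 higher members (3.70%, 1.45 to 9.14%), 15 of the 115 lower ones (13.0%, 8.07 to 20.4%) and 46 of the 581 not called (7.92%, 5.99 to 10.4%). Intronic regions held them in 17.8% of higher, 8.61% of lower and 10% of not called regions, and all regions in 16.9, 8.13 and 8.35%. In the IRF8KO-only class the order was that of other regions, with 5 of 27 members (18.5%, 8.18 to 36.7%) against 22.0% of all IRF8KO-only regions, and 7 of 116 WT-only members (6.03%). The counts are small and the difference in order was not tested. Lower members with a CEBP match included Fam184b (1.94 and 1.23 in WT, 0.267 and 0.393 in IRF8KO), Cage1 and Nckap1l, chosen after their values were seen.

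**Figure D5:**
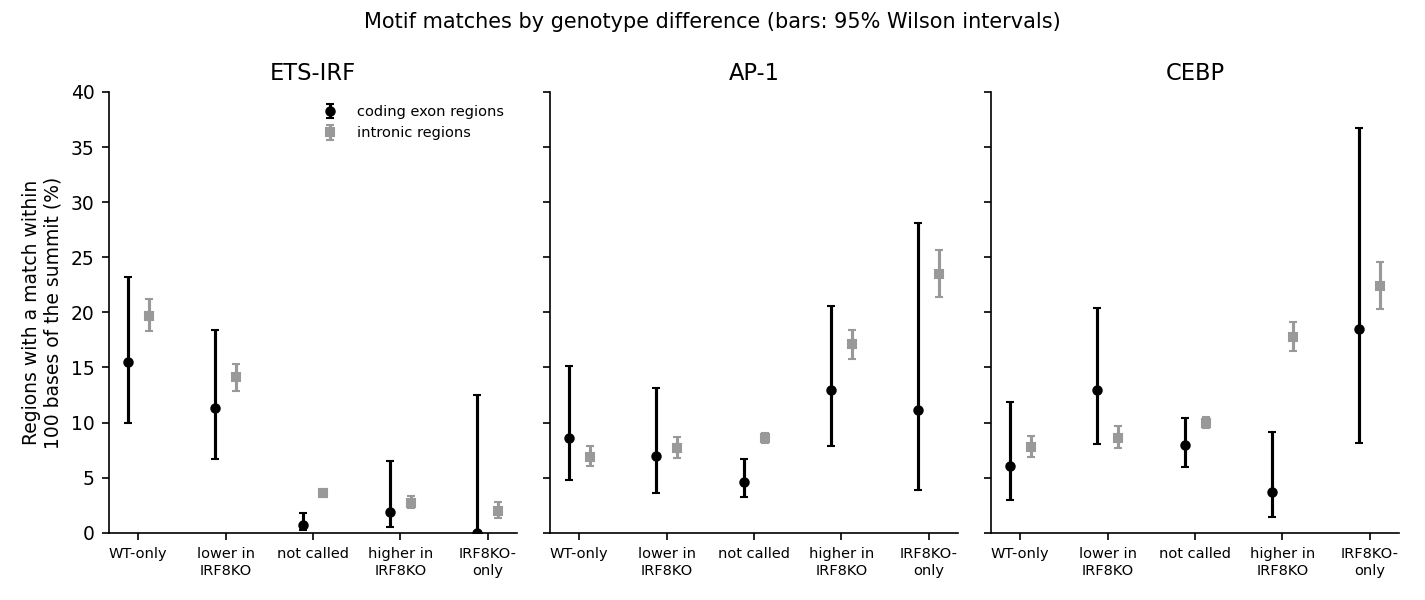
Share of regions with an ETS-IRF, AP-1 or CEBP match within 100 bases of the summit (vertical axis, percent) by how the region differed between genotypes, for coding exon regions (black circles) and intronic regions (grey squares), with 95% Wilson intervals. ETS-IRF shares are highest in WT-only (15.5%) and lower regions (11.3%), and the CEBP share of higher coding exon regions (3.70%) lies below that of higher intronic regions (17.8%).

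Coding exon regions held CTCF matches (CCNNNAGGGGGC) in 3.65% of cases against 2.03% of intronic regions. GC box and NRF1 matches were found in 12.7 and 1.36% of members and 5.04 and 0.121% of intronic regions, in windows that also differ in GC content. All regions, which include promoters, held them in 15.2 and 1.34%.

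Of 18116 genes with coding bases eligible under the rule, 1220 held a member. Of 57 autosomal myeloid transcription factor genes, 10 held 14 members, of which 2 were WT-only, 0 IRF8KO-only and 0 of 6 tested were called. Over all regions 6.47% were WT-only, 3.41% IRF8KO-only, 14.0% higher and 12.5% lower. The WT-only ones were those of Egr1 and of Irf9, an interferon regulatory factor (0.532 and 0.389 in WT). Regions of Fos, Cx3cr1 and Sall1, like that of Irf8 above, are outside the rule for named regions and were chosen after their values were seen. The region in the last exon of Fos, an AP-1 subunit, reached 1.60 and 0.982 in WT and 0.584 and 0.876 in IRF8KO and did not pass (limma adjusted p = 0.155). Of 30 interferon-stimulated genes, 1 (Usp18) held a member, and of 16 disease-associated microglia genes, 1 (Cd9).

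Microglia markers Cx3cr1, P2ry12 and Sall1 held 5 members. The region inside the single coding exon of Cx3cr1, the fractalkine receptor, reached 0.831 and 0.552 in WT and 0.381 and 0.770 in IRF8KO, and the groups overlapped. The region over the last exon of Sall1, a transcription factor of microglial identity, reached 0.682 and 0.532 in WT, with no peak in IRF8KO replicate 1 and 0.196 in replicate 2. Of the phagocyte list, 2 of 31 genes held a member. Tlr9, a receptor for unmethylated DNA, rose from 0.575 and 0.675 to 1.02 and 1.53 (log2 change 1.32 ± 0.26, limma adjusted p = 6.31e-05). Of 22 actin and adhesion genes, 2 held 3 members, and Myh9, the heavy chain of a non-muscle myosin, fell from 0.809 and 0.573 to 0.140 and 0.317 (-1.37 ± 0.33, adjusted p = 0.00119 by limma). The Myh9 call was lost without WT replicate 1 (the adjusted p ranged up to 0.0953), and the Tlr9 call without WT replicate 1 and without centring.

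No neuron, endothelial, neutrophil and monocyte or B and T cell marker held a coding exon region. Of the astrocyte markers, Slc1a3, a glutamate transporter, fell from 2.49 and 1.98 to 0.571 and 1.40 (log2 change -0.99 ± 0.23, limma adjusted p = 0.000563), Aldh1l1 rose from 0.213 and 0.143 to 0.241 and 0.453, and Gfap did not pass. Of the oligodendrocyte markers, Mbp, a myelin protein, fell from 0.490 and 0.614 to 0.165 and 0.136 (-1.55 ± 0.37, adjusted p = 0.00106 by limma), and Mag did not pass. The Slc1a3 and Mbp calls were lost without WT replicate 1 (adjusted p 0.112 and 0.0598), and the Aldh1l1 call without either WT replicate and without centring. Summed promoter levels of the astrocyte markers were 3.02 and 1.94 in WT and 1.85 and 3.47 in IRF8KO, and those of the oligodendrocyte markers 2.04 and 1.78 against 0.495 and 0.982. Aqp4, Gja1 and S100b, and Mag, Mobp and Sox10, had no promoter peak in any library. Oligodendrocyte markers were thus lower in both IRF8KO libraries, as the Mbp region was. So were the summed endothelial markers (8.12 and 6.63 against 1.81 and 2.30) and the summed microglia markers (37.3 and 28.2 against 17.8 and 26.9). These sums were not centred on the library medians, which were themselves lower in IRF8KO on average. The part of these cell types in the results was not tested.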

How the data were processed

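The deposited files are peak lists of 4 ATAC-seq libraries, mapped to mm10 with Bowtie2 per the submitters' processing notes. Each library had its own peak calling by the authors, with MACS2 2.1.1.20160309, no control and duplicate tags kept, per the file headers. The deposited columns used are the pileup signal in tags at the summit and the −log10 q. Other deposited columns, the −log10 p and the fold enrichment, describe peaks only. Rows of 1 peak with several summits were reduced to its highest pileup, and pileup was expressed per 1e6 of the header's tags.

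Overlapping peaks were merged on 19 autosomes and placed with GENCODE M21 on GRCm38, with every annotated transcript start as a TSS. Members and gene lists were chosen with earlier results of these data known. Regions listed in all libraries were tested with limma 3.58.1 (R 4.3.3) on log2 normalised pileup, with a mean-variance trend and Benjamini-Hochberg adjustment, after a test on simulated data. Single values were compared by exact permutation of 2 against 2 libraries. Matches to 12 motifs were sought on both strands within 100 bases of a summit, and motifs can overlap one another. Printed sequences were read from the GRCm38 reference genome, and they skip chromosome 18 and untranslated regions.

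Named regions were, by rule, the 10 highest members present in all libraries, the 10 highest WT-only and IRF8KO-only members, the 5 largest called changes each way, members in gene lists that differed, and the 5 genes with most members. Others were chosen after their values were seen, as the text says. One region that the rule names is not reported here. Alternatives changed the height threshold, the q cutoff, the TSS distance and set, the placement of a region, the definition of absence, the overlap, the centring, the trend, the replicate block and the libraries used. Replicate numbers did not pair the libraries: the replicate difference in WT correlated at 0.018 with that in IRF8KO over 55504 regions.

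The height threshold ended just below the members: the lowest had a best level of 0.254, and the highest region left out 0.245. The distance rule left out 2602 regions with a midpoint in a CDS exon, up to 999 bp from a TSS, and kept members from 1001 bp. Peaks weaker than the authors' cutoff are not in the lists, so a region without a peak has no measured level. The lowest listed level was 0.128, 0.123, 0.102 and 0.106 normalised pileup in WT replicates 1 and 2 and IRF8KO replicates 1 and 2.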

Additional observations from a re-analysis of the deposited data

How the results depend on the processing

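The differences in the ETS-IRF, AP-1 and CEBP shares kept their sign in all alternatives, but those of AP-1 (0.396 to 1.56 percentage points) and CEBP (0.00843 to 1.46) varied widely, and AP-1 groups overlapped at a threshold of 0.5 and with all deposited peaks. The summit GC difference from introns stayed between 5.91 (TSS over 2 kb away) and 7.21 percentage points (all deposited peaks). The difference in members present reversed to 271 when all deposited peaks were used. The level difference from introns was -0.0648 at a threshold of 0.5.

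WT-only and IRF8KO-only members numbered 45 and 6 at a threshold of 0.5 (3.93 and 1.58% over all regions), 294 and 208 with all deposited peaks (3.66 and 3.63%), and 236 and 59 where a weaker peak counted as absence (12.6 and 5.62%). Leaving out 1 library gave 137 to 213 WT-only and 42 to 79 IRF8KO-only members, and 45 to 105 higher and 46 to 129 lower ones, where all regions gave 7.55 to 13.3%, 4.51 to 8.77%, 6.35 to 14.1% and 4.21 to 12.3%. Without centring, 23 were higher and 75 lower. A fit with the replicate block gave 113 higher and 122 lower members (14.7 and 13.1% over all regions), and paired sign-flip tests of the per-library values gave p = 0.5, the smallest exact value possible, with the differences unchanged at -284 members present, -2.82 (ETS-IRF), 1.07 (AP-1) and 0.5 (CEBP) percentage points.

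Depth and tag length follow genotype, so their part in any difference between genotypes cannot be told apart from it. Leaving a genotype with 1 library assumes that this library varies like the pair of the other. The cause of the changes under these alternatives was not tested. With 2 libraries per genotype, no exact permutation test of a single value can reach 0.05.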

Other observations

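Motif matches within coding exons share their bases with codons. Of 93 AP-1 matches in members, 58 lay wholly in the coding part of the exon, and none of these 58 began at the first base of a codon, where TGA would be a stop codon. They began at the second codon base in 27 cases and at the third in 31. Of 59 ETS-IRF matches, 41 lay wholly in coding sequence, and of the 31 read in the direction of the gene, 22 began at the third codon base, 8 at the first and 1 at the second. A start at the third base reads the element through the codons GAA (glutamate), NNG and AAA (lysine). Of 115 CEBP matches, 82 were wholly coding, and the 43 in the gene's direction began at the first codon base in 23 cases, the second in 19 and the third in 1. These counts are values without a test.

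Of the 7582 coding exon regions formed by all deposited peaks, 6188 stayed below the threshold of 0.25 in every library. The 7 IRF8KO-only members with an AP-1 or CEBP match lay in Cenpf, Gpr171, Maco1, Creb5, Pparg, Ppp3cb and Atad2, named after their values were seen. The Creb5 region, in a basic leucine zipper gene, held both matches and reached 0.317 and 0.664 normalised pileup in IRF8KO, and the Pparg region, in a nuclear receptor gene, 0.330 and 0.453.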
